A study of Mus musculus with 4 samples.

Results

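Complement, clotting and fibrinolysis proteins that the liver makes were followed in liver RNA of Fto knockout and wild-type mice. Members were chosen by symbol from a list of 41 names, with serpins and C1q left out, and 38 of these genes were found among 13887 gene names in the study. The input table held 37 of them and the immunoprecipitate table held 31, as 41 transcript features. By symbol, C2 was found in the immunoprecipitate only, and C1s, F10, F11, F13b, Proc, Pros1 and Proz in the input only. The input identifier named Cfb carries the name C2 in the reference. C5 is listed in the mouse as Hc, and the names C1ra and C4b stood in neither table.

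The groups were Fto knockout immunoprecipitate and wild-type immunoprecipitate, and Fto knockout input and wild-type input, all from liver biopsy RNA of the C57/Bl6 background. Each of the 4 labels states 3 replicates. The labels give no age, sex, treatment or kind of Fto allele. Nor do they tie replicates to separate animals, so the p-values reflect only variation among these samples and that may be technical. The immunoprecipitate was made by miCLIP, in which an antibody against methylated adenosine is crosslinked to RNA and the bound fragments are cloned. Fto encodes a demethylase of RNA adenosines, and the series asks how it acts on m6Am, the methylated adenosine beside the cap.

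Complement is a cascade of plasma proteases and pore-forming proteins that tags and lyses microbes. The clotting cascade turns prothrombin into thrombin, which cuts fibrinogen into fibrin, and plasmin later dissolves the clot. Hepatocytes secrete most of these proteins, and their RNAs are among the abundant messages of the liver.

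Values are the mean normalized signal, an average that the authors took over their libraries, and the log2 fold change with its standard error (SE), both from the authors' deposited tables. A positive fold change means higher in Fto knockout. That direction was read in the input from Fto itself, which the authors' deposited table puts at −1.49 (SE 0.27, adjusted p = 3.52e-04 by DESeq2). The immunoprecipitate was read the same way, which rests on little, and read the other way every immunoprecipitate sign turns. Single libraries were not analysed here. The depth of each and the levels of each genotype are therefore unknown. Judged by the sizes of the values and their SE, fold changes look shrunken towards 0 in the input but not in the immunoprecipitate. The processing notes do not say whether shrinkage was used. The tables may therefore not share 1 scale. The per-gene difference tested below subtracts the input fold from the immunoprecipitate fold, and its size is not read as measured. Bulk RNA cannot tell fewer cells of a type from less RNA per cell.

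The liver label was checked against markers. Of 10 hepatocyte markers 9 were in the input, and the authors' deposited table gives them means from 293.5 to 84262. Markers of Kupffer cells and macrophages (10 of 11 found) had means from 9.70 to 240.5 there, and a median log2 fold change of −0.02. Median log2 fold changes were −0.02 for hepatocyte, 0.12 for endothelial, −0.00 for stellate, −0.12 for cholangiocyte, 0.35 for lymphocyte, and −0.50 for erythroid and platelet markers, from the authors' deposited table. None of the markers found was called in the input by the authors' adjusted p (DESeq2), and 1 hepatocyte marker and 1 erythroid marker had an unadjusted p under 0.05. Their part in the results was not tested.

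In input RNA, most complement and coagulation genes lay slightly below 0 in Fto knockout liver, and none passed the authors' test. Of 37 genes, 28 were below 0, or 75.7%, against 46.5% of all genes in the table. Their median log2 fold change was −0.18, against 0.02 over the whole table, and single genes in the authors' deposited table lay between −0.52 and 0.18. At an adjusted p under 0.05 (DESeq2, adjusted by the authors) 0 of 37 were called, beside 0.0388% of all genes. At an unadjusted p under 0.05 there was 1 of 37, or 2.70%, beside 2.21% of genes with a p. The SE of a single gene lay between 0.20 and 0.30, and 27 of 37 values were within 1 SE of 0. The adjusted p was 0.9998 for each of the 37 (DESeq2, by the authors).

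**Figure D1:**
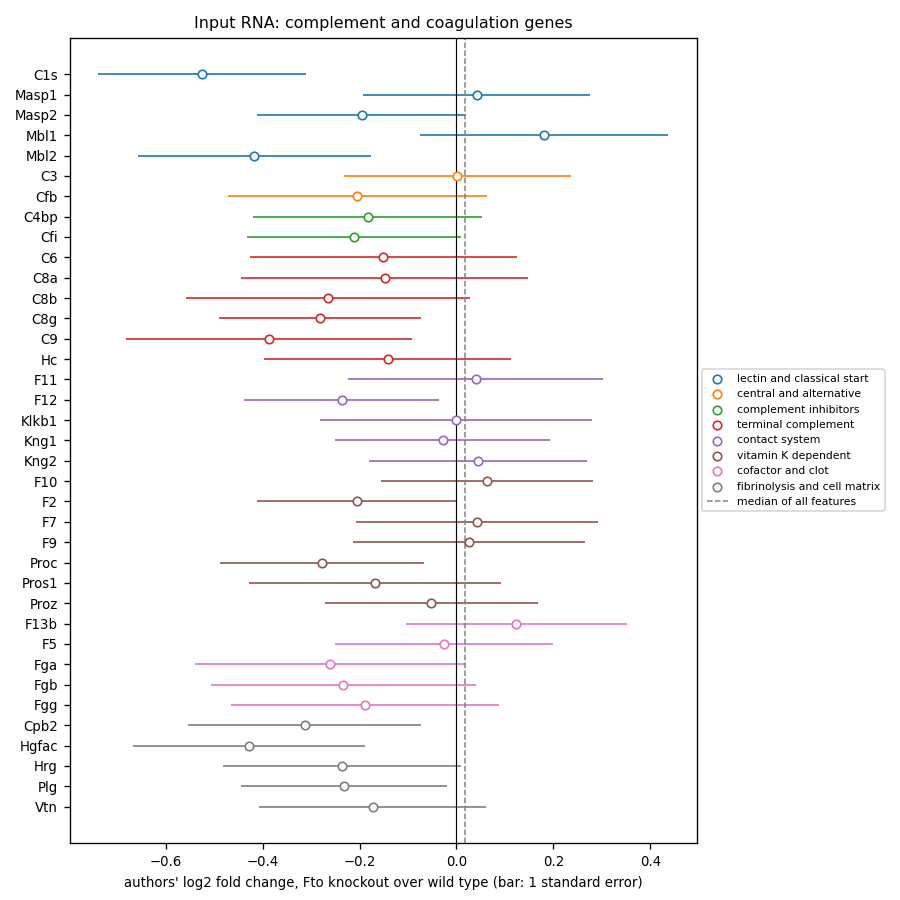
Authors' log2 fold change in input RNA, Fto knockout over wild type, for 37 complement and coagulation genes coloured by role; bars are 1 SE and open circles mark genes that were not called. Of the points, 28 lie left of 0, the dashed line marks the median of all genes at 0.02, and no gene is called.

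The start of the classical and lectin pathways held the lowest and the highest fold changes of the set. C1s, the C1 protease that cuts C4 and C2, stood at −0.52 (SE 0.21, p = 0.0147, mean 329.4) in the authors' deposited table. Mbl2 and Mbl1, mannose-binding lectins that recognise microbial sugars, stood at −0.42 (SE 0.24, p = 0.0824, mean 391.1) and 0.18 (SE 0.26, p = 0.482, mean 222.9) in the authors' deposited table. Their proteases Masp1, at 0.04, and Masp2, at −0.20, lay between in the authors' deposited table. Of the 5 genes found, 3 were below 0. The identifier of C1s carries the name C1s1 in the reference, a gene with a close paralog that could share its reads.

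Among central and inhibitory complement genes every value was within 1 SE of 0. C3, on which all activation routes meet, stood at 0.00 (SE 0.23, p = 0.993, mean 16423) in the authors' deposited table. The alternative-pathway protease Cfb stood at −0.20 (SE 0.27, p = 0.444, mean 75.3) in the authors' deposited table. Its gene identifier carries the name of the neighbouring gene C2 in the reference, so it is uncertain which of the pair the value belongs to. Cfi, the protease that inactivates C3b and C4b, stood at −0.21 (SE 0.22, p = 0.339, mean 771.4) and its cofactor C4bp at −0.18 (SE 0.24, p = 0.438, mean 853.8) in the authors' deposited table.

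All 6 genes of the terminal pathway, which builds the membrane attack pore, lay below 0 and none was called. C9, which forms the ring of the pore, was lowest at −0.39 (SE 0.30, p = 0.191, mean 977.8) in the authors' deposited table. The subunits of C8 stood at −0.28 for C8g, −0.26 for C8b and −0.15 for C8a in the authors' deposited table. Hc, the mouse C5 gene, stood at −0.14 (SE 0.25, p = 0.578, mean 2160) and C6 at −0.15 in the authors' deposited table. Over the 6 genes the median was −0.21.

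The contact system, which starts clotting on surfaces and releases bradykinin, was centred near 0 in the input. F12 was lowest at −0.24 (SE 0.20, p = 0.237, mean 680.6) and the kininogen gene Kng2 highest at 0.05 (SE 0.22, p = 0.841, mean 271.1) in the authors' deposited table. Kng1, the other kininogen, stood at −0.03, F11 at 0.04 and Klkb1, the prekallikrein gene, at −0.00 in the authors' deposited table. The reference gives the identifier of Klkb1 another name, Gm45753.

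Among factors that need vitamin K, procoagulant genes lay on both sides of 0 in the input, and Proc, Pros1 and Proz, which act against clotting, lay below 0 without being called. Proc, which encodes anticoagulant protein C, was lowest at −0.28 (SE 0.21, p = 0.189, mean 644.2) and F10, the factor that activates prothrombin, highest at 0.06 (SE 0.22, p = 0.772, mean 683.8) in the authors' deposited table. Prothrombin itself, F2, stood at −0.21 (SE 0.21, mean 3206) in the authors' deposited table. F7, F9, Proz and the protein C cofactor Pros1 lay between −0.17 and 0.04 in the authors' deposited table.

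The 3 fibrinogen genes, neighbours on chromosome 3, had nearly the same input value. Fga stood at −0.26 (SE 0.28, p = 0.352, mean 10068), Fgb at −0.23 (SE 0.27, mean 8473) and Fgg at −0.19 (SE 0.28, mean 7329) in the authors' deposited table. F5, the cofactor of F10, stood at −0.03, and F13b, the carrier subunit of the enzyme that crosslinks fibrin, at 0.12 (SE 0.23, p = 0.587, mean 307.5) in the authors' deposited table. The fibrinogen values differ by less than 1 SE from each other and from 0.

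Genes of fibrinolysis and the cell matrix were all below 0, 5 of 5, with none called. Hgfac, the activator of hepatocyte growth factor, was lowest at −0.43 (SE 0.24, p = 0.0734, mean 243.6) in the authors' deposited table. Cpb2, which protects clots from plasmin, stood at −0.31, the plasmin precursor Plg at −0.23 and Hrg, a plasminogen-binding glycoprotein, at −0.24 in the authors' deposited table. Vtn, which stabilises the inhibitor of plasminogen activators, stood at −0.17 (SE 0.23, p = 0.461, mean 4819) in the authors' deposited table.

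Members that share a chromosome with Fto, chromosome 8, all lay near 0 in the input. F7, F10 and Proz lie side by side from 13025506 to 13076026, and F11 and Klkb1 from 45240659 to 45294835 (GRCm38). In the authors' deposited table these 5 genes ranged from −0.05 to 0.06 (median 0.04). Of the members that inflammation is known to induce, 7 were in the input with a median of −0.23 and 6 below 0, led by C1s.

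A pair of rows carried member genes under another name. By gene identifier, C1ra, the partner protease of C1s, stood at −0.21 (SE 0.27, mean 57.8) in the authors' deposited table. C4b, whose product joins C2 in the convertase, stood at −0.43 (SE 0.25, p = 0.0860, mean 1385, adjusted p = 0.9998 by DESeq2) in the authors' deposited table, where its row bears the name of its close paralog C4a. Both identifiers were looked up after the values by symbol were seen.

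In the immunoprecipitate, 4 complement and contact-system genes passed the authors' adjusted p with a printed fold change below 0: C4bp, C8a, Masp1 and Kng2. Lower and higher refer here to the sign of the printed fold, which the authors' p may not test. Of 41 features 5 were called lower and 0 higher, or 12.2%, beside 1.18% of all features called lower and 1.45% called either way. Only features with an adjusted p could be called. That held for 32 member features, of which 15.6% were called lower, beside 3.79% of all such features. At an unadjusted p under 0.05 there were 10 features of 6 genes, all lower, or 26.3% of those with a p, beside 8.52% of all. Transcripts of 1 gene share exons and are not independent, and 7 of the 10 belong to C8a, C8b and Kng2. With 1 feature per gene, 3 of 23 genes were called lower, or 13.04% of those with an adjusted p, beside 3.69%. No member feature was called when p was adjusted over all features of the table, which leaves 34 calls in all. As a set, the features had a median of −1.83, against −1.59 for the whole table, and 34 of 41 were below 0, or 82.9%, beside 70.5% of all. At a mean of 10 or more, the medians were −1.79 for members and −0.82 for all features.

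The called features had low signal. Their means lay between 13.2 and 40.9, and their log2 fold changes between −10.51 and −9.04, in the authors' deposited table. How far down such a fitted fold reaches depends on the reads of the lower genotype, which are not known here, so it is not read as a measured size. In all, 13 member features were below −5, or 31.7%, beside 24% of all features. In this table the authors' p differs from a Wald test of the fold they print, and the term it tests is unknown here.

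**Figure D2:**
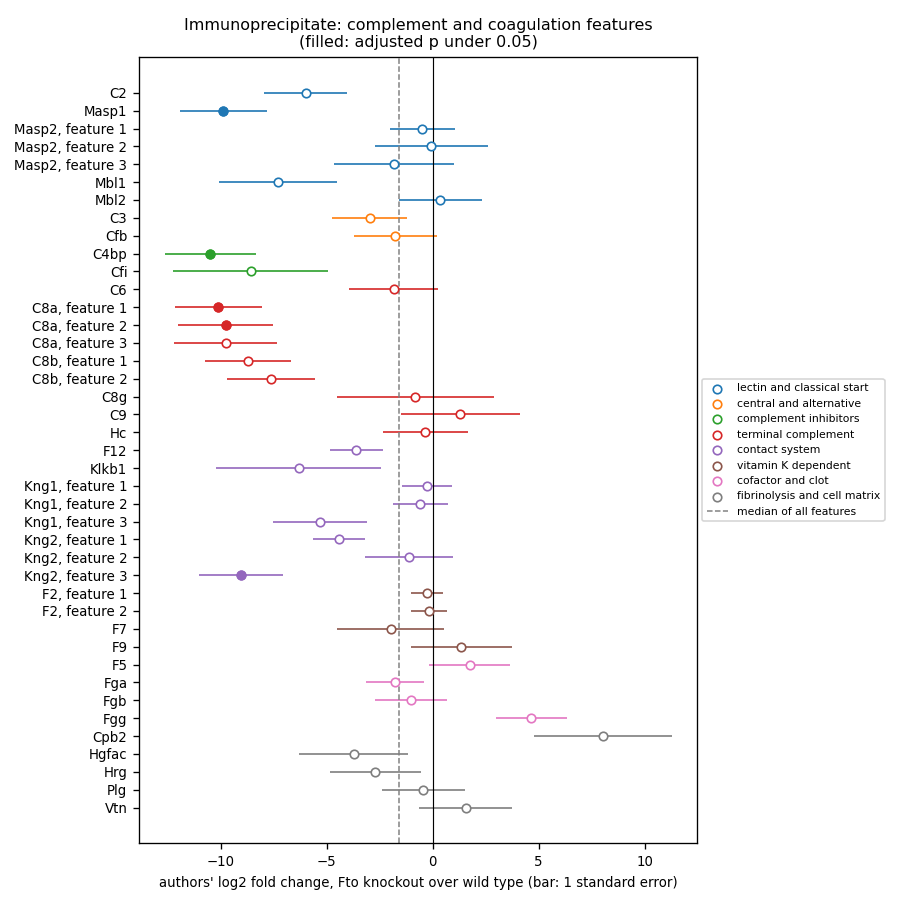
Authors' log2 fold change in the immunoprecipitate, Fto knockout over wild type, for 41 features of 31 complement and coagulation genes coloured by role; bars are 1 SE and filled circles mark an adjusted p under 0.05. The 5 filled circles (Masp1, C4bp, C8a as 2 features, Kng2) all lie left of −9, and most other features cross or lie near the dashed line, the median of all features at −1.59.

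The C8 complex joins C5b, C6 and C7 and inserts into the target membrane, and 2 of its 3 subunit genes stood low in the immunoprecipitate. C8a had 3 features, at −10.12 (SE 2.07, adjusted p = 0.0309 by DESeq2, mean 40.9), −9.77 (SE 2.253, adjusted p = 0.0445, mean 28.4) and −9.78 (SE 2.43, adjusted p = 0.0622, mean 21.3) in the authors' deposited table. C8b, the adjacent gene on chromosome 4, had 2 features, at −8.72 (SE 2.03, adjusted p = 0.0715 by DESeq2, mean 19.3) and −7.64 (SE 2.08, adjusted p = 0.0857, mean 7.45), which were not called in the authors' deposited table. All 5 features of this gene pair had an unadjusted p under 0.05. C8g, the small subunit encoded on another chromosome, stood at −0.82 (SE 3.69, mean 3.66) in the authors' deposited table, and 842 features had a fold change within 0.0005 of it. The other terminal genes were not called, with Hc at −0.35, C6 at −1.84 and C9 at 1.30 in the authors' deposited table.

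Both complement inhibitors had fold changes below 0, and only C4bp was called. C4bp, which binds C4b and helps Cfi to cut it, stood at −10.51 (SE 2.16, adjusted p = 0.0341 by DESeq2, mean 20.4) in the authors' deposited table. Cfi stood at −8.60 (SE 3.64, mean 4.05) with no p in the authors' deposited table. The difference between the pair is within their SE.

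Lectin-pathway proteases differed from each other in the call. Masp1 stood at −9.89 (SE 2.05, adjusted p = 0.0386 by DESeq2, mean 13.2), while the most abundant Masp2 feature stood at −0.49 (SE 1.54, adjusted p = 0.639, mean 33.3) in the authors' deposited table. Whether Masp1 and Masp2 differ from each other was not tested. C2, the catalytic part of the classical convertase, stood at −5.99 (SE 1.96, adjusted p = 0.0630 by DESeq2, mean 17.7), below 0 but not called, in the authors' deposited table. Mbl1 stood at −7.29 with no p, and Mbl2 at 0.35 (SE 1.96) in the authors' deposited table. C3 stood at −2.99 (SE 1.77, adjusted p = 0.512 by DESeq2, mean 12.6) and Cfb at −1.77 (SE 1.97, adjusted p = 0.369, mean 16.9), neither called, in the authors' deposited table.

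Kininogen transcripts of the same gene had unlike printed fold changes, and whether they differ from each other was not tested. The Kng2 features stood at −4.43 (SE 1.24, adjusted p = 0.140 by DESeq2, mean 55.9), −1.11 (SE 2.08, mean 26.8) and −9.04 (SE 1.97, adjusted p = 0.0274, mean 22.1) in the authors' deposited table, so the 1 call did not rest on the most abundant of them. Its neighbour Kng1 had features at −0.28 (SE 1.19, mean 192.1), −0.60 (SE 1.29, mean 172.2) and −5.33 (SE 2.21, mean 13.3), none called, in the authors' deposited table. The first of these has a 95% interval from −2.62 to 2.05. Kng1 and Kng2 are close paralogs whose reads may have been shared out by the counting, so their values are uncertain. F12 stood at −3.60 (SE 1.26, p = 0.0885, adjusted p = 0.308 by DESeq2, mean 24.3) and Klkb1 at −6.33 (SE 3.89, mean 1.79) in the authors' deposited table.

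No vitamin K dependent gene was called, and F2 had the smallest SE of all member features. The F2 features stood at −0.26 (SE 0.76, mean 102.4) and −0.18 (SE 0.83, mean 72.7) in the authors' deposited table. For the first the 95% interval runs from −1.75 to 1.23, on the scale on which the called members stood near −10. F7 stood at −1.99 (SE 2.51, adjusted p = 0.821 by DESeq2, mean 11.5) and F9 at 1.34 (SE 2.39, mean 11.2) in the authors' deposited table. F10, Proc, Pros1 and Proz were not among the immunoprecipitate features, though each had an input mean above 100.

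Fibrinogen genes lay on both sides of 0 in the immunoprecipitate. Whether they differ from each other was not tested, and their spread is not set against that of the input folds, which look shrunken. Fgg stood at 4.65 (SE 1.67, p = 0.0995, adjusted p = 0.331 by DESeq2, mean 26.7) in the authors' deposited table. Fgb stood at −1.02 (SE 1.68, mean 36.7) and Fga at −1.79 (SE 1.38, mean 15.6), and F5 at 1.74 (SE 1.91), in the authors' deposited table. None was called. In fibrinolysis, Plg stood at −0.45 (SE 1.96, mean 63.4), Hrg at −2.71 (SE 2.15, mean 16.0), Hgfac at −3.73 (SE 2.57, mean 2.99) and Vtn at 1.55 (SE 2.19, mean 5.71) in the authors' deposited table. Cpb2 had the highest fold change of the set, 8.02 (SE 3.25, mean 7.32), with no p in the authors' deposited table.

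**Figure D3:**
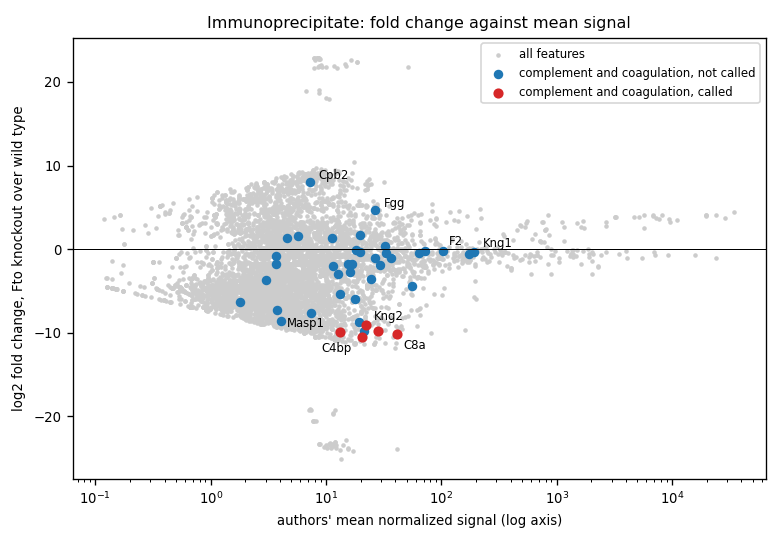
Authors' log2 fold change against mean normalized signal (log axis) in the immunoprecipitate, for all 7569 features in grey and 41 complement and coagulation features in colour, with called ones in red. The called features sit along the lower edge of the cloud at means from 13.2 to 40.9, and the members of highest mean, Kng1 and F2, lie near 0.

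Sequences around the transcription start are shown for the called members C8a, C4bp and Kng2, for C8b beside C8a, and for the fibrinogen cluster, because m6Am can form only where the first transcribed base is an adenosine. RefSeq starts (GRCm38.p6) were matched for 32 of the 41 names, and the start of C1s is that of C1s1. No sequence is printed for Masp1. Each line gives 100 bases before the start and the first 10 transcribed bases, 5′ to 3′ on the gene's strand. Capitals mark the first transcribed base and each GTTAAT on either strand, the core of sites for the liver factor HNF1. The windows are chr4:104876389-104876498 minus for C8a, chr4:104766217-104766326 plus for C8b, chr1:130661609-130661718 minus for C4bp and chr16:23029092-23029201 minus for Kng2. Those of the fibrinogen genes are chr3:83026053-83026162 plus for Fga, chr3:83049854-83049963 minus for Fgb and chr3:83007624-83007733 plus for Fgg.
C8a: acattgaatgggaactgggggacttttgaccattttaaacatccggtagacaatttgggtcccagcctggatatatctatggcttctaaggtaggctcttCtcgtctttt
C8b: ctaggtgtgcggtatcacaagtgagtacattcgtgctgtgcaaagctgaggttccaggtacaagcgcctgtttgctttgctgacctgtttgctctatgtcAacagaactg
C4bp: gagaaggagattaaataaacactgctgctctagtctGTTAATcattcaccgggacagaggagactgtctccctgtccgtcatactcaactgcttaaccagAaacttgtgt
Kng2: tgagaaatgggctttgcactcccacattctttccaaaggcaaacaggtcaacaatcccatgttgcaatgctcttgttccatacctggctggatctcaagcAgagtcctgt
Fga: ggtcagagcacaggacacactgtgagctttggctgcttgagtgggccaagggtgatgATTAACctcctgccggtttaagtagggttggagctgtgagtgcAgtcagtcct
Fgb: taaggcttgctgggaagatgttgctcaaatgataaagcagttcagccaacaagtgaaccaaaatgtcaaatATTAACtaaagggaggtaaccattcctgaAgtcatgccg
Fgg: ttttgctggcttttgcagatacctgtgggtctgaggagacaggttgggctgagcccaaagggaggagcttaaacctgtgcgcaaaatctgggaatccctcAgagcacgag

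The first transcribed base was A in 21 of 34 starts of member genes, or 61.8%, against 34.4% of all 32851 starts. Among the printed genes, C8a is the exception, with a C at the start used. The starts used for C8a and C4bp lie inside the annotated genes, which reach upstream to chr4:104876487 and chr1:130661657. The bases at those outer ends were not read. At the starts used, C4bp and Kng2 have an A and were called, while C8b, Fga, Fgb and Fgg have an A and were not. C8a has a C at its inner start and was called. Whether the first base goes with the call was not tested. Over genes with a start and an immunoprecipitate value, the median log2 fold change was −1.79 for 17 starting with A and −1.49 for 8 starting with another base. RefSeq starts need not be the starts used in these livers, and where on a transcript the antibody bound was not analysed here.

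Motifs of liver factors were searched on both strands over 250 bases before and 50 after the start. GTTAAT was present in 12 of 34 member windows, or 35.3%, against 7.10% of all windows. TTGCNNAA, a C/EBP-type motif, was likewise in 12, or 35.3%, against 10.8%. AAAGTCC, an HNF4-type motif, was in 2, or 5.88%, against 4.21%, and the TATA box TATAAA in 5, or 14.7%, against 13.6%. C8a, C8b and C4bp each held GTTAAT, as did Fga and Fgb, while Kng2 and Fgg did not. A match is a run of letters in a window and is not a site shown to be bound.

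Immunoprecipitate and input fold changes were then set against each other per gene. Input folds look shrunken towards 0 and immunoprecipitate folds do not. The difference is nearly the immunoprecipitate fold itself and does not separate binding from RNA level. The difference passed for 7 of 22 genes whose mean reached 10 in each table, 6 of them lower in the immunoprecipitate than in the input and 1 higher (Wald test on the deposited values, Benjamini-Hochberg over 780 genes). That is 31.8%, beside 26.2% of all genes (20.3% lower and 5.9% higher), so the share is near the background and is no result about the set. C4bp differed by −10.32 (SE 2.17, adjusted p = 3.34e-05), C8a by −9.97 (SE 2.09) and Masp1 by −9.93 (SE 2.06, adjusted p = 2.65e-05). C8b differed by −8.46 (SE 2.05, adjusted p = 4.13e-04), Kng2 by −4.47 (SE 1.26) and F12 by −3.36 (SE 1.28, adjusted p = 0.0351). Fgg was the member on the other side, at 4.84 (SE 1.69, adjusted p = 0.0197). For the remaining 15, F2 had the narrowest error, with a difference of −0.06 (SE 0.79). The test takes the errors as independent and uses the printed immunoprecipitate SE, under which C8b, F12 and Fgg differ although the authors' adjusted p did not call them. At a minimum mean of 50, 4 members could be tested and Kng2 passed, beside 5.51% of 127 genes.

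**Figure D4:**
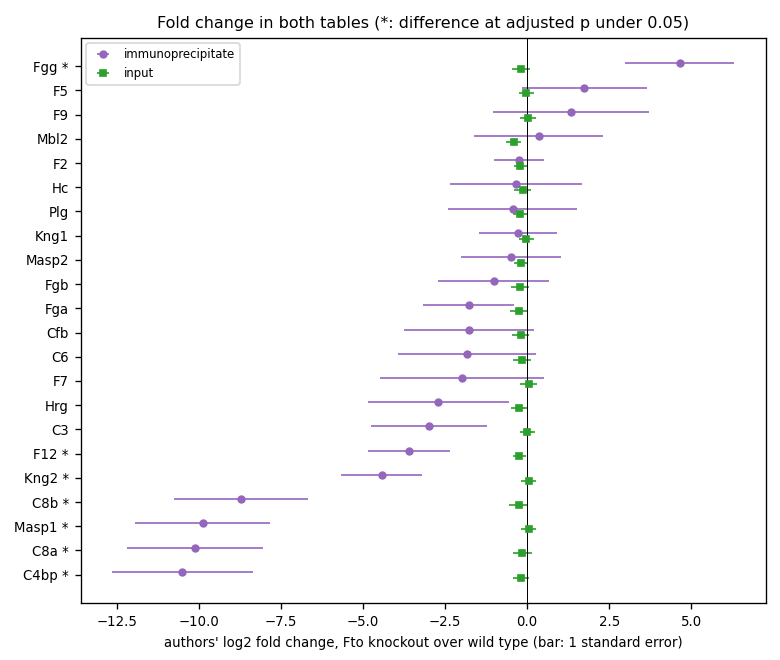
Authors' log2 fold change, Fto knockout over wild type, in the immunoprecipitate (circles) and the input (squares) for 22 complement and coagulation genes with a mean of at least 10 in both; bars are 1 SE and a star marks a difference at an adjusted p under 0.05. Input values all lie close to 0, while C4bp, C8a, Masp1 and C8b lie below −8 in the immunoprecipitate.

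Antibody-bound signal relative to input was low for many of these genes. Over 30 genes in both tables, the median log2 ratio of immunoprecipitate mean to input mean was −5.25, against −3.29 over 3966 genes, and 26 of the 30 lay below that median. The tables were normalized separately, so only the place among all genes can be read. C3 had means of 12.6 in the immunoprecipitate and 16423 in the input, a log2 ratio of −10.34 at percentile 0.0504, in the authors' deposited tables. Vtn (−9.72), Fga (−9.34), Fgg (−8.10) and Fgb (−7.85) followed, each in the lowest percentile or close to it, with Fgb at 1.31. Highest were Cfb at −2.16 and Kng2 at −2.28, with Masp2 at −3.04 and Kng1 at −3.27. The input identifier of Cfb carries the name C2 in the reference, so its ratio may set the signal of 1 gene against that of the other. The ratio is low where the input level is high: over 1211 genes with an input mean of at least 100, the median was −4.96, and −5.44 for the 28 members among them. Of rows at that input level, 82.4% of members (28 of 34) and 56.2% of all were in the immunoprecipitate table.

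**Figure D5:**
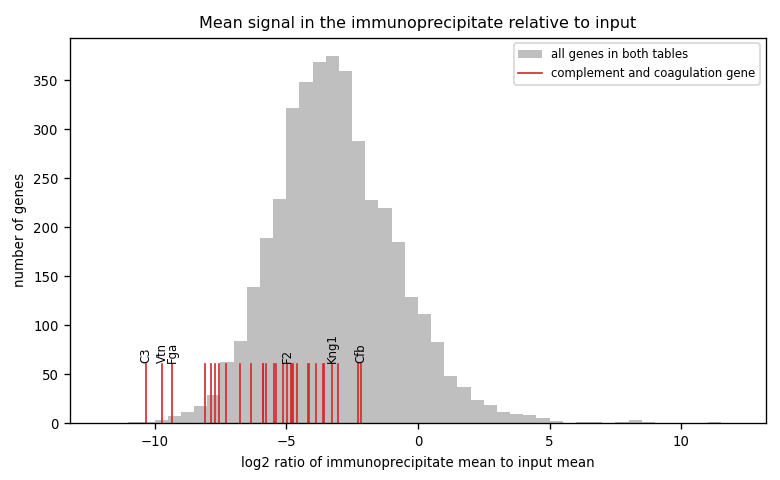
Histogram of the log2 ratio of immunoprecipitate mean to input mean over 3966 genes (grey, number of genes per bin), with 30 complement and coagulation genes as red lines of fixed height. Red lines run from −10.34 for C3 to −2.16 for Cfb, whose input row may belong to C2, and 26 of them lie below the median of all genes.

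Other genes of these pathways, from a list of 55, were mostly uncalled as well. In the input 48 were found, with a median of −0.06 and 0 called by the authors' adjusted p (DESeq2), beside 0.0388% of all genes. An unadjusted p under 0.05 held for 2, beside 2.21% of all genes with a p. Cebpa, a factor that drives many liver promoters, stood at −0.52 (SE 0.21, p = 0.0133, adjusted p = 0.9998 by DESeq2), and Colec10, a lectin of the complement system, at 0.52 (SE 0.26) in the authors' deposited table. In the immunoprecipitate 38 features of 27 genes were found, with 1 called lower and 0 higher, beside 1.18% of all features called lower. At an unadjusted p under 0.05, 9 of the 38 were lower, beside 8.52% of all features with a p. A share above that of the whole table was therefore not particular to the members. The called feature belongs to Serpinf2, the plasmin inhibitor gene, at −8.87 (SE 1.50, adjusted p = 0.00402 by DESeq2, mean 25.6) in the authors' deposited table. The more abundant Serpinf2 feature stood at −0.40 (SE 0.81, mean 74.7) in the authors' deposited table. As in Kng2, the call did not rest on the most abundant feature, and whether the features differ was not tested. Serpina10, the inhibitor that works with protein Z, stood at −10.62 and −5.64, and Cpn2, a subunit of the enzyme that inactivates anaphylatoxins, at −9.31, none called, in the authors' deposited table. Unadjusted p under 0.05 also held for 1 feature each of A2m (−5.34), Serpind1 (−6.83), Stat3 (−6.81) and Nr1i2 (−8.93) in the authors' deposited table.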

How the data were processed

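The deposited files are the authors' comparison tables, 1 for the immunoprecipitate by transcript and 1 for the input by gene. The submitters' processing notes name STAR, bedtools 2.25.0, DESeq2 and mm10 without saying what each did. Columns hold, per the file headers, the authors' mean normalized signal, a log2 fold change with its standard error, a test statistic (score), and a p-value with an adjusted p-value from the authors. Library depths, filters and model terms were unknown here.

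Features were found by symbol and called at the authors' adjusted p under 0.05. The difference between tables was tested as a Wald statistic on the most abundant feature per gene, adjusted by Benjamini-Hochberg (Python 3.11.15, SciPy 1.17.1). It took genes with a mean of at least 10 in both and names carried by 1 input gene. The test was also run on simulated data, with independent errors drawn from the printed SE. Such data cannot check whether the printed SE holds or whether the real errors are independent. Intervals are 95%. Of 12883 input identifiers 12869 matched the reference names. Members with an unadjusted p under 0.05, a called difference, the highest and lowest input value of each role or its 3 lowest immunoprecipitate p were given in most detail, and other pathway genes were named at an unadjusted p under 0.05, of which 1 is not reported here. Members and lists were chosen with earlier results of these data known. Alternatives were other adjustments, thresholds, minimum means, centring, 1 feature per gene, paralogs left out and the turned direction.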

Additional observations from a re-analysis of the deposited data

Results flagged for a closer look

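A Wald test of immunoprecipitate minus input log2 fold change, Fto knockout over wild type, passed for 7 member genes. Input folds look shrunken and immunoprecipitate folds do not, and the differences are nearly the immunoprecipitate folds. Their sizes are not read as measured. The log2 difference, immunoprecipitate minus input, was −10.32 for C4bp, −9.97 for C8a, −9.93 for Masp1, −8.46 for C8b, −4.47 for Kng2 and −3.36 for F12. For Fgg it was 4.84. The share of such genes was near that of the whole table, 31.8% of members beside 26.2% of genes. Single libraries were not analysed here.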

How the results depend on the processing

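No paired analysis was possible because the tables hold comparison results without replicate columns, and no replicate could be left out. In the input, 0 members were called under the authors' adjustment, a readjustment, a threshold of 0.1, minimum means of 10 or 50, centring, and with C1ra and C4b added by identifier (chosen after seeing the data); at an unadjusted p under 0.05 there was 1, C1s. The input median stayed between −0.20 and −0.18 under 5 alternatives. In the immunoprecipitate the 5 called features became 0 after adjustment over the table (beside 0.449% of all features), 9 at a threshold of 0.1 (2.7%), 10 at an unadjusted p under 0.05 (9.41%), 12 with the Wald p of the printed fold (11 lower, 1 higher; 10.8%) and 3 with 1 feature per gene (1.2%). A minimum mean of 10 left 5, or 16.1% of member features at that mean, beside 5.83% of all features. The percentages given for all features or genes count calls in either direction. The median of −1.83 became −0.23 after centring and 1.83 with the direction turned. Centring, recomputed for 24 member features, turned the sign of F2 (1.33), Plg (1.15), Masp2 (1.10) and 1 Kng2 feature (0.48), and of C3 in the input (−0.017). In all, 11 member features lie between the table median and 0 and so turn on centring, none of them called. After centring, with the Wald p, Fgg and 3 uncalled C8a and C8b features passed. The count of 7 differences became 1 at a minimum mean of 50 (5.51% of genes), 6 with no minimum, and 5 with each table centred, when Kng2 and F12 no longer passed. With the direction turned it stayed at 7, of which 6 were higher. The cause of these changes was not tested, except that fewer features or genes were tested at higher minimum means. Depth per library is unknown, and low means limit the immunoprecipitate.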
